A study of Mus musculus with 416 samples.

Results

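Voltage-gated calcium and sodium channels are large pore proteins that open when a neuron's membrane depolarizes. The genes described here are the protein-coding genes whose symbols name a calcium channel pore or auxiliary subunit (Cacna, Cacnb1 to Cacnb4, Cacng1 to Cacng8) or a sodium channel pore or auxiliary subunit (Scn followed by a number and a or b). These 40 genes were found among the 46517 gene IDs of the table. Of them, 38 passed the filter on low counts, as did 22968 genes of the whole table. Cacng6 and Scn4a, a γ subunit and the skeletal muscle sodium pore, did not pass and are described by level alone.

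The table holds RNA of the striatum, sequenced after ribosomal RNA depletion, in 416 libraries of drug-naïve J:DO mice (Diversity Outbred, an outbred stock bred from several founder strains). All libraries share this stock, tissue and lack of drug, and the labels give no age. The groups differ in labelled sex (F or M) and breeding generation (G21, G22 or G23). Generation 21 holds 76 female and 74 male libraries by label, generation 22 holds 60 and 59, and generation 23 holds 72 and 75. Titles carry an animal number of their own, so each library was taken as a separate animal.

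A calcium channel is built on an α1 subunit, which forms the pore and sets the current type, with a β subunit on the inner side of the membrane and an α2δ subunit on the outer side, both of which raise the number of channels at the surface. Most γ subunits named Cacng are better known as auxiliary proteins of AMPA-type glutamate receptors. A sodium channel is built on an α subunit, which carries the upstroke of the action potential, with β subunits that tune its gating and bind other cells. In the striatum most neurons are spiny projection neurons, whose firing rests on sodium current and whose dendrites carry several types of calcium current.

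The median library held 43516282 counts in total, the smallest 20331737 and the largest 77458200. The summed level of 10 spiny projection neuron markers had a median of 4507 CPM (counts scaled to a common library size with TMM factors) and a range of 85.3 to 5933, and all 10 passed the filter. Gabra6, a marker of cerebellar granule cells, and Isl2, a marker of sensory neurons, had a median of 0. The summed level of the 5 cerebellar granule and Purkinje cell markers, led by Calb1, had a median of 142.67 CPM. Of these 5 markers 4 passed the filter. The 4 sensory neuron markers had a summed median of 0.622 CPM, and 2 of them passed. A median of 0 for 1 marker therefore does not show that a cell type was absent. Female generation 21 replicate 34 held the lowest spiny sum and the highest sum of 8 thalamic relay neuron markers, 4326 CPM against a median of 175.1. In 29 libraries the level of Xist went against the labelled sex. A low total count or a low correlation with the other libraries set 29 libraries apart (14 in generation 21, 6 in generation 22 and 9 in generation 23), of which 4 also went against the labelled sex. Calls named here that these libraries changed are given with both values.

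The pore subunits of calcium channels were led by Cacna1e, the R-type pore. Its level had a median of 878 CPM, with 38.6 in the lowest library and 1161 in the highest. Per kilobase of all annotated exons, the scale used here to compare genes, Cacna1e stood at 34.8 CPM and made up a median 29.7% of the summed α1 level. Cacna1i, a T-type pore, followed at 17.8 CPM per kb, Cacna1a (P/Q-type) at 15.8, Cacna1b (N-type) at 14.3, Cacna1h (T-type) at 13.8, Cacna1c (L-type) at 12.2 and Cacna1d (L-type) at 6.59. The third T-type pore, Cacna1g, had a median of only 1.13 CPM per kb but a range of 5.55 to 395.04 CPM without length scaling. Cacna1s, the skeletal muscle pore, and Cacna1f, the retinal pore, had medians of 0.554 and 0.368 CPM and lay at 0.0845 and 0.0405 CPM per kb.

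Among the calcium channel auxiliary genes, Cacna2d3 led the α2δ subunits at 31.8 CPM per kb, a median 55.2% of their sum, ahead of Cacna2d1 at 15.6 and Cacna2d2 at 9.90. Cacna2d4 stood at 0.321 CPM per kb. Cacnb4 led the β subunits at 39.1 CPM per kb, a median 42.3% of their sum, and Cacnb1, Cacnb3 and Cacnb2 followed at 23.6, 18.8 and 11. Cacng4 led the γ subunits at 33.4 CPM per kb, then Cacng3 at 21.1, Cacng7 at 20.7, Cacng8 at 12.8 and Cacng2, the stargazin gene, at 9.63. Cacng5 at 2.25 and Cacng1, a muscle γ subunit, at 0.509 were low, and Cacng6 had a median of 0.0763 CPM.

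Scn4b and Scn2b, both sodium channel β subunits, held the highest levels of all members. Scn4b, a β subunit linked to resurgent sodium current, stood at 190 CPM per kb and had 175.9 CPM in the lowest library, 945.7 at the median and 1675 in the highest. Scn2b stood at 84.2 CPM per kb, and Scn3b was lower at 25.98. Scn4b made up a median 55.7% of the summed β level.

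Among the sodium pores, Scn2a led at 45.4 CPM per kb, a median 43.3% of the summed α level, ahead of Scn8a at 24.4, Scn1a at 18.9 and Scn3a at 13.6. These 4 are the pores known from the central nervous system. The pores known from peripheral nerve and skeletal muscle were far lower. Scn9a stood at 0.960 CPM per kb, Scn7a (a sodium-sensing relative) at 0.235, Scn11a at 0.0741 and Scn10a at 0.0225, while Scn4a had a median of 0 CPM and a highest value of 0.218.

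Some neighbours in the order of levels were clearly apart and many were not. Scn4b exceeded Scn2b per kilobase in 99.3% of libraries, Scn2b exceeded Scn2a in 100%, Cacng2 exceeded Cacna1d in 97.6% and Cacna1d exceeded Cacng5 in 99.3%. In contrast, Cacna1a was above Cacna2d1 in 49.5% of libraries, Cacna1h above Scn3a in 46.6%, Cacna2d2 above Cacng2 in 52.6%, Scn1a above Cacnb3 in 55%, Cacng3 above Cacng7 in 56% and Scn8a above Cacnb1 in 57%, so these neighbours did not differ beyond their spread. The same held at the low end for Cacna1s and Scn11a (50.2%), Cacna1f and Cacng6 (54.1%) and Cacng6 and Scn10a (48.6%). The order also depends on the length used. Per kilobase of the longest annotated transcript Cacna2d3 stood at 75.1 CPM and Cacnb2 at 28.9, above Cacnb3 at 27.6. On that scale Cacna1a (22.8) and Cacna1c (19.7) were above Cacna1i (17.9), and Cacng2 and Cacna1d were closer, at 9.63 and 8.62. The highest gene of each subunit class stayed the same. Levels of paralogs and of genes with an overlapping gene on the other strand, such as Cacna2d3 (Lrtm1), Cacna2d4 (Lrtm2), Cacna1h (Tpsg1), Cacna1c (Dcp1b) and Cacna1d (Chdh and Dcp1a), are uncertain to the extent that reads were shared, since the counting method is not given in the sources used here.

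**Figure D1:**
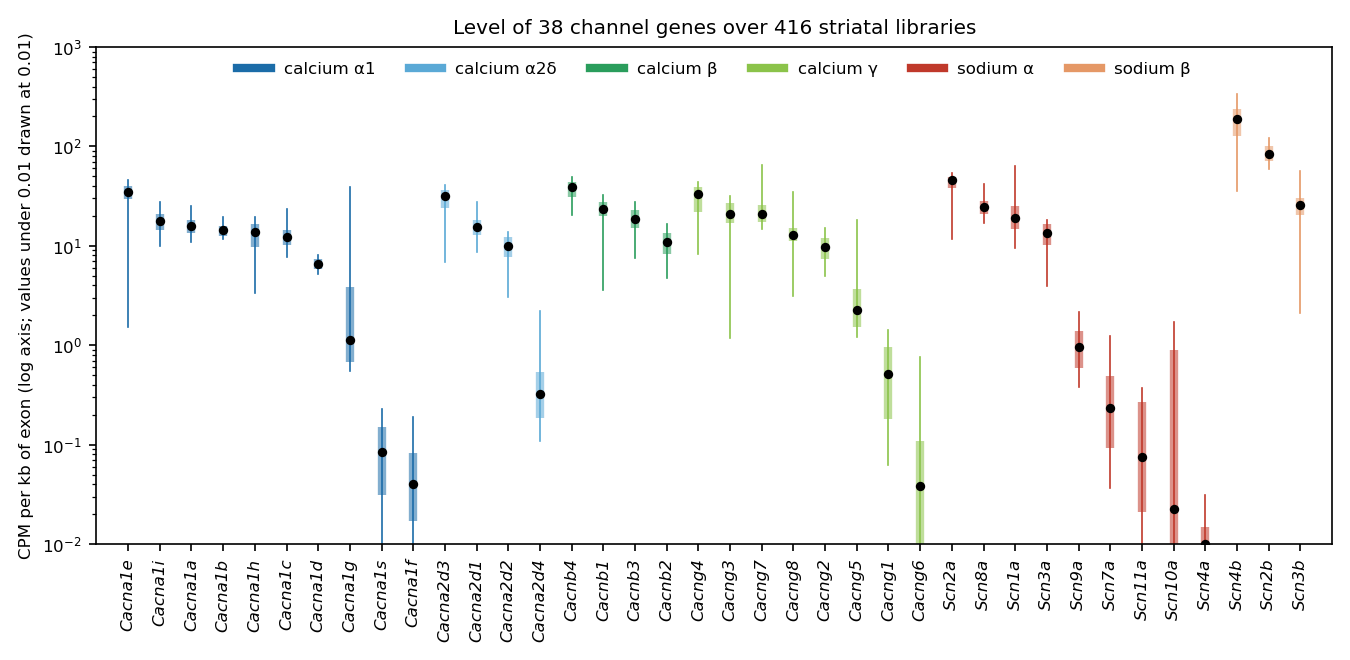
Level of 38 of the 40 genes in CPM per kb of exon on a log axis, grouped by subunit class and ordered by median. Black points are medians over 416 libraries, thick bars span most libraries and thin lines from the lowest to the highest library. Scn4b is highest at 190, and Cacna1g and Scn10a have the long upper tails.

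Spread between animals differed widely among the members. The SD of log2 CPM over the 416 libraries had a median of 0.25 over the 38 members and of 0.30 over all genes tested, and it exceeded 0.5 for 7 members (18.4%) against 28.5% of all genes tested. Relative to level the median was higher for the members: edgeR's dispersion of a gene divided by the trend at its level had a median of 0.76 over the members and 0.37 over all genes tested. The 5 most even members were Cacna1b and Cacna1d at 0.11 (5.15% and 5.29% of all genes tested were more even), Scn8a at 0.14, Cacna1a at 0.15 and Cacnb4 at 0.16, with Scn2b and Cacna1c also at 0.16. Cacna1d ran only from 66.3 to 101.9 CPM. The 5 most variable were Scn10a at 2.60, above 99.6% of all genes tested, Scn11a at 1.03, Cacna1g at 0.88, Scn7a at 0.73 and Cacna1s at 0.65, with Cacng1 also at 0.65. Median counts were only 8 for Scn10a, 20 for Scn11a, 73 for Scn7a, 24 for Cacna1s and 28 for Cacng1, so counting error adds to these SDs. Relative to the trend at their level, Cacna1s (0.658) and Cacng1 (0.716) lay below the median of the members.

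Several distributions had a heavy lower tail made by a few libraries. The median excess kurtosis was 4.05 over the members and 0.84 over all genes tested. Cacna1e had a skewness of -10.34, Cacng3 of -6.90, Scn3b of -6.04, Cacnb1 of -5.97 and Scn2a of -5.03. Without the 29 libraries set apart these became -0.21, 0.06, -0.32, 0.19 and -1.05, in the same order. Female generation 21 replicate 34, the library with the highest thalamic marker sum, held the lowest value of 10 members and the highest value of 9. In that library Cacna1e was at 38.6 CPM, Scn3b at 11.5, Cacng3 at 3.27 and Scn2a at 148.6, the lowest of all libraries, while Cacna1g was at 395.04, Scn1a at 713.3 and Cacng7 at 159.2, the highest. The SD of log2 CPM shrank as well: without the libraries set apart, that of Cacna1e went from 0.28 to 0.13, that of Scn3b from 0.27 to 0.16, that of Cacnb1 from 0.22 to 0.13, that of Cacng3 from 0.30 to 0.19, that of Scn2a from 0.17 to 0.11 and that of Cacng8 from 0.20 to 0.13.

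Male generation 22 replicate 29 was extreme in another direction. It held the lowest Scn4b (175.9 CPM) and Cacng4 (29.6 CPM) and the highest Cacna2d1 (345.1 CPM), Scn3b (306.6 CPM) and Cacng8 (82.1 CPM) of all libraries. Its cortical marker sum of 1307 CPM was the highest of all, its spiny sum was 784, and its Xist level went against its label. Male generation 21 replicate 26 held the lowest value of 6 members, among them Cacnb4, Scn8a, Scn1a and Scn2b. All these libraries are among the 29 set apart.

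Scn10a, a sodium pore known from pain-sensing neurons, had 2 levels. Its counts were 0 in 30 libraries, its level lay below 0.5 CPM in 250 libraries, and only 10 libraries lay between 0.5 and 2 CPM, with the rest above. The bimodality coefficient of its log2 CPM was 0.75, against 0.556 for a uniform distribution, and it was the highest of the 38 members. Below 1 CPM the median was 0.0975 CPM, and at or above it the median was 4.35 CPM with a highest value of 13.6. The limit of 1 CPM was chosen after the values were seen.

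Both levels occurred in every generation and in both sexes. Libraries at or above 1 CPM of Scn10a made up 38.9% of all libraries, 31.3% in generation 21, 41.2% in generation 22 and 44.9% in generation 23, and 42.3% of those labelled female and 35.6% of those labelled male. Within the upper level the medians by generation were 3.84, 4.45 and 4.44 CPM, so the levels overlapped across generations. The summed level of 4 sensory neuron markers ran from 0.141 to 2.16 CPM over all libraries with a median of 0.622. P2rx3 had the highest median of the 4, 0.42 CPM, and Isl2 had a median of 0. The 6 marker scores together took 1.28% of the variance of Scn10a, the lowest share of the 38 members, and the labelled sex and generation took 0.418% and 1.65%.

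**Figure D2:**
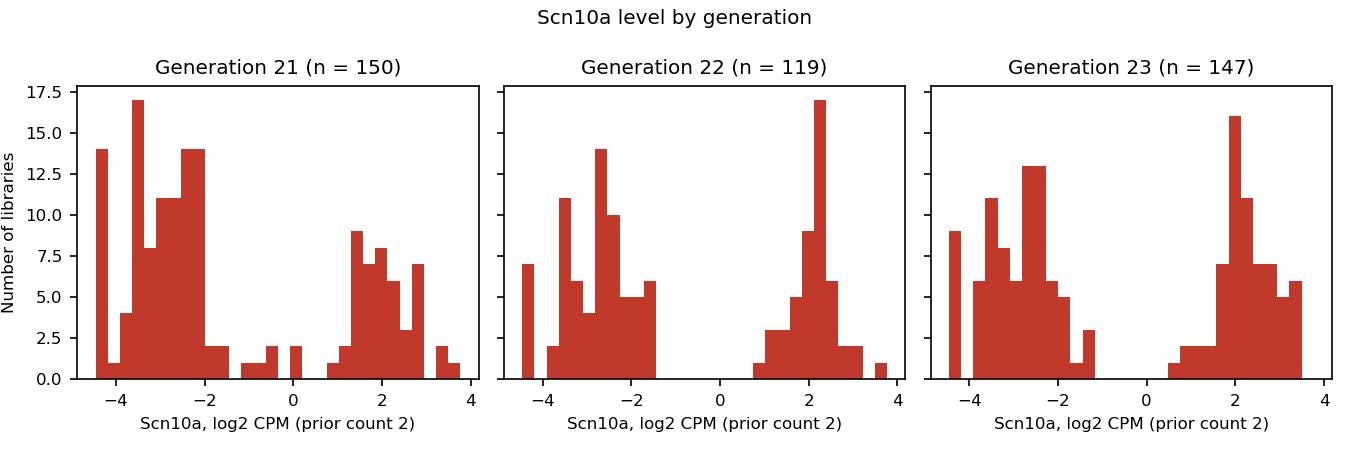
Number of libraries by log2 CPM of Scn10a (prior count 2) in generations 21, 22 and 23. Each panel has a lower and an upper set with few libraries between them, and the upper set holds 31.3%, 41.2% and 44.9% of the libraries.

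Scn10a and Scn11a are neighbouring protein-coding genes on chromosome 9, both on the minus strand. Because Scn10a falls into separate sets, its co-variation is given within them. In the 38.9% of the 416 libraries at or above 1 CPM of Scn10a, Scn11a had a Spearman rho of 0.46 and a Pearson r of 0.39 with it (permutation p = 1e-05 each, the smallest that 100000 permutations can give, adjusted p = 4e-05 and 8e-05 over 8 relations), and r was 0.39 without the 2 farthest libraries. Scn7a had rho -0.39 and r -0.35 there (permutation p = 1e-05 and 2e-05, adjusted 4e-05 and 8e-05). Scn9a had rho 0.06 (permutation p = 0.46). In the remaining libraries below 1 CPM, where Scn10a is near its detection limit, rho was 0.06 with Scn11a and 0.09 with Scn7a (permutation p = 0.377 and 0.175).

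Scn11a itself spread over 0 to 2.20 CPM without separate sets (bimodality coefficient 0.41). Over all 22968 genes tested, the 12 genes ranked nearest to Scn10a by the size of rho all lay on chromosome 9, within 2.10 Mb of it in the annotation used. They included Scn11a, Acaa1b and Entpd3, which ranked with it, and Acaa1a and Cx3cr1, which ranked against it; this list was chosen after the values were seen and rests on the 2 sets of Scn10a.

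The upstream sequences of Scn10a and Scn11a are shown because these neighbours moved together, and those of Scn2b and Scn4b because this pair also lies side by side on chromosome 9 and moved together. They come from RefSeq (build GRCm38.p6), in which 30 of the 40 members had a promoter entry. Each run is the 250 bases before an annotated start, 5′ to 3′ on the gene's strand: chr9:119719033-119719282 (minus) for Scn10a, chr9:119825457-119825706 (minus) for Scn11a, chr9:45117626-45117875 (plus) for Scn2b and chr9:45138374-45138623 (plus) for Scn4b. Capitals mark a match on either strand to any of 4 motifs: the TATA box TATAAA, the box named CCAAT, the GC box GGGCGG and the cyclic AMP element TGACGTCA.
Scn10a: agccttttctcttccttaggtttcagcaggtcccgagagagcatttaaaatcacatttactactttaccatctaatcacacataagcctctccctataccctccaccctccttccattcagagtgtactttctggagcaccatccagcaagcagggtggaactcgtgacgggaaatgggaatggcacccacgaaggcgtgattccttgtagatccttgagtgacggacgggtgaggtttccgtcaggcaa
Scn11a: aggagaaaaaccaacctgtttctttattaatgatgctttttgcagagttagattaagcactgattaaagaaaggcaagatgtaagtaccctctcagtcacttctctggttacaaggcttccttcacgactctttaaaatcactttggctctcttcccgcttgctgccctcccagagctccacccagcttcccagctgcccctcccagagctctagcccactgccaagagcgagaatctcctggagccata
Scn2b: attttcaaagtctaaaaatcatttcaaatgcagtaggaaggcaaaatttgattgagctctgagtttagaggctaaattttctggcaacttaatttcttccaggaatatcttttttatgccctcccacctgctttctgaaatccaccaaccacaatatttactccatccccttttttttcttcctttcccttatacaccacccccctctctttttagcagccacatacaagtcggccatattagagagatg
Scn4b: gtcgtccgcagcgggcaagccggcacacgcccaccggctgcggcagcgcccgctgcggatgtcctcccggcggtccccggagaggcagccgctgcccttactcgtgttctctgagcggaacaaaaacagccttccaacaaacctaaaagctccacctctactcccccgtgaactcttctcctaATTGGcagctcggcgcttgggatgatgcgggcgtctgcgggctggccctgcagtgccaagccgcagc

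The starts of Scn10a and Scn11a lie 106424 bases apart and those of Scn2b and Scn4b 20748 bases apart in that build. The windows differ in composition: with 50 further bases after the start, GC content was 51.7% for Scn10a, 50.3% for Scn11a, 38.3% for Scn2b and 66.3% for Scn4b, and Scn4b held 26 CG dinucleotides against 2 for Scn2b. The median promoter in the table had 52.7% GC and 7 CG dinucleotides. A match to CCAAT on the opposite strand, printed as ATTGG, occurred in Scn4b and no match to the 4 motifs in the other 3. CCAAT occurred on either strand in 37.4% of all 32841 promoters of 300 bases, TATAAA in 13.6%, GGGCGG in 35.7% and TGACGTCA in 1.79%. Among the 41 promoters of members these shares were 24.4%, 4.88%, 39% and 0%, in the same order. A match is a description of the letters and not of a bound site.

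Cacna1g, the T-type pore with the widest range among the well-measured members, followed the markers of cortical excitatory neurons and of thalamic relay neurons. Its rho with the cortical score, the mean log2 CPM of the markers, was 0.84 and its r 0.77 (permutation p = 1e-05 each, the smallest possible, adjusted p = 2.4e-05 and 2.21e-05 over all relations of 38 members with 6 scores), and r stayed at 0.77 without the 2 farthest libraries. Within the 6 groups of sex and generation rho ran from 0.55 to 0.95, and without the libraries set apart it was 0.86. With the thalamic score rho was 0.67 and r 0.68. With the spiny projection score rho was -0.71 and r -0.69, and within groups rho ran from -0.88 to -0.43. In bulk tissue fewer cells of a type and less RNA per cell cannot be told apart.

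The 3 libraries with the highest Cacna1g, at 395.04, 276.7 and 192.1 CPM, were female generation 21 replicate 34, male generation 21 replicate 35 and female generation 21 replicate 1. Their thalamic marker sums were 4326, 2969 and 2303 CPM, against a median of 175.1, and their cortical sums were 821, 714.8 and 518.3 CPM, against a median of 643.8. Their Cacna1g was far above 47.1 CPM, the highest value among the libraries not set apart. Their spiny sums were 85.3, 2198 and 798 CPM, against a median of 4507. Bcl11b, the highest gene on the cortical list, had a median of 487 CPM over all these striatal libraries. Whether its RNA came from cortical cells was not tested. A like cortical sum therefore need not mean a like level of the other cortical markers. The 6 marker scores together took 89.2% of the variance of Cacna1g, the highest share of any member (median over members 34.2%). The 5 genes most like Cacna1g were Mast1 (rho 0.91), Sez6l, Olfm1 and Cck (0.90 each) and Syt13 (0.89) over the 416 libraries.

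**Figure D3:**
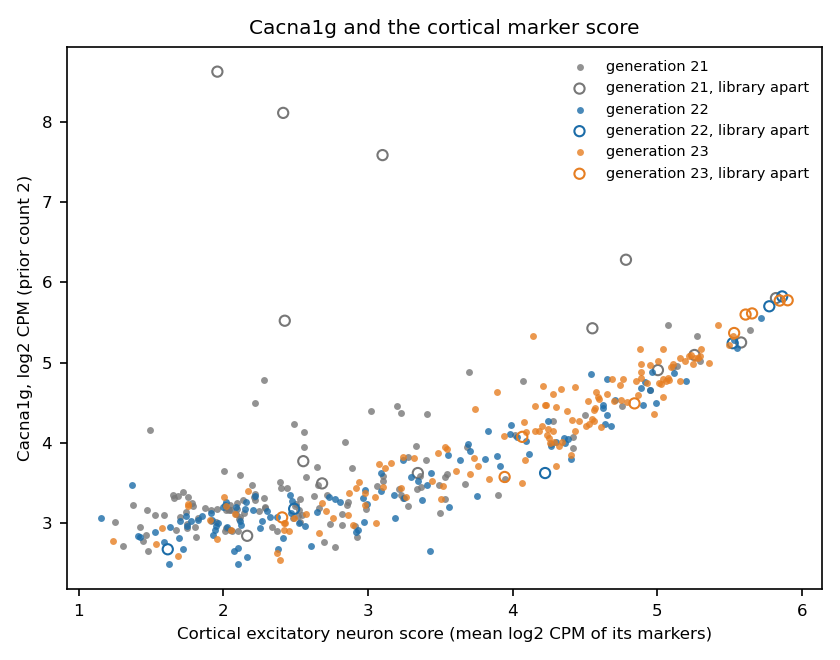
Log2 CPM of Cacna1g against the mean log2 CPM of the cortical excitatory neuron markers in each of 416 libraries, coloured by generation, with open circles for the 29 libraries set apart. Most libraries lie on a rising band (rho 0.84), and a few generation 21 libraries lie far above it.

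The other likeness lists were weaker. Cacna2d4 was most like Ttyh2 and Cnp (rho 0.45 each), Opalin (0.44), Cldn11 (0.43) and Phldb1 (0.42), several of which are myelin genes, and Cacng5 was most like Klhdc8a (0.37), Kcnc1 (0.34), Rab11fip5 (0.33), Gpr162 and Cntfr (0.31 each). Scn4b, added after its values were seen, was most like Smpd3 (rho 0.78), Rasd2 (0.75), Pde1b and Lrrc10b (0.74 each) and Ppp1r1b (0.73), the DARPP gene of spiny neurons.

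Differences between labelled sexes were not called for any member in the main fit, which keeps the 29 libraries against the labelled sex. Of the 38 members tested, 0 passed an adjusted p of 0.05 in edgeR's quasi-likelihood test, where 2.86% of all genes tested did (1.55% higher and 1.3% lower in libraries labelled female), and DESeq2 and limma voom also called 0. At an unadjusted p under 0.05 there were 7 members, all higher in libraries labelled female, which is 18.4% of the members against 17.2% of all genes tested in either direction. Cacng2 had the smallest adjusted p, 0.0866 in edgeR, at a log2 difference of 0.05 (SE 0.019), and its levels overlapped almost fully (30.4, 54.3 and 82.8 CPM for the lowest, median and highest female library, 27.4, 51.97 and 83.2 for male). The median log2 difference was 0.026 over the members and -0.002 over all genes tested. Without the 29 libraries against the labelled sex, 4.78% of all genes tested were called between labelled sexes. Without the 29 libraries set apart 5 members were called higher in libraries labelled female (Cacnb1, Cacnb3, Cacng2, Cacng3 and Scn8a, at 0.04 to 0.06, with 5.90% of all genes called), and with 6 marker scores in the fit 4 were (Cacnb1, Cacng4, Scn2b and Scn4b, at 0.04 to 0.08, with 4.97% of all genes called).

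The sex difference of no member was called as differing between generations. The interaction passed for 0 of 38 members in edgeR, where 0.322% of all genes did, and 3 members (7.89%) had an unadjusted p under 0.05, against 7.82% of all genes. The smallest adjusted p was 0.540. On simulated counts the same test recovered 34%, 62%, 84% and 100% of interactions of 1.1, 1.2, 1.5 and 2-fold.

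Between generations, small changes were common among the members and in the whole table. In generation 23 against generation 21, edgeR called 26 of 38 members, where 58.3% of all genes tested were called. Of these, 12 were higher (25.8% of all genes were) and 14 lower (32.6% of all genes were). The median size of the log2 difference was 0.0943 over the members and 0.0944 over all genes tested, and the medians with sign were -0.018 and -0.017. In generation 22 against generation 21, 20 members were called (46.6% of all genes), 8 higher (22.1%) and 12 lower (24.5%). These contrasts share the generation 21 libraries. In generation 23 against generation 22, 13 were called (18.2% of all genes), 7 higher (8.53%) and 6 lower (9.63%). Any difference between generations was called for 31 members (63.8% of all genes).

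**Figure D4:**
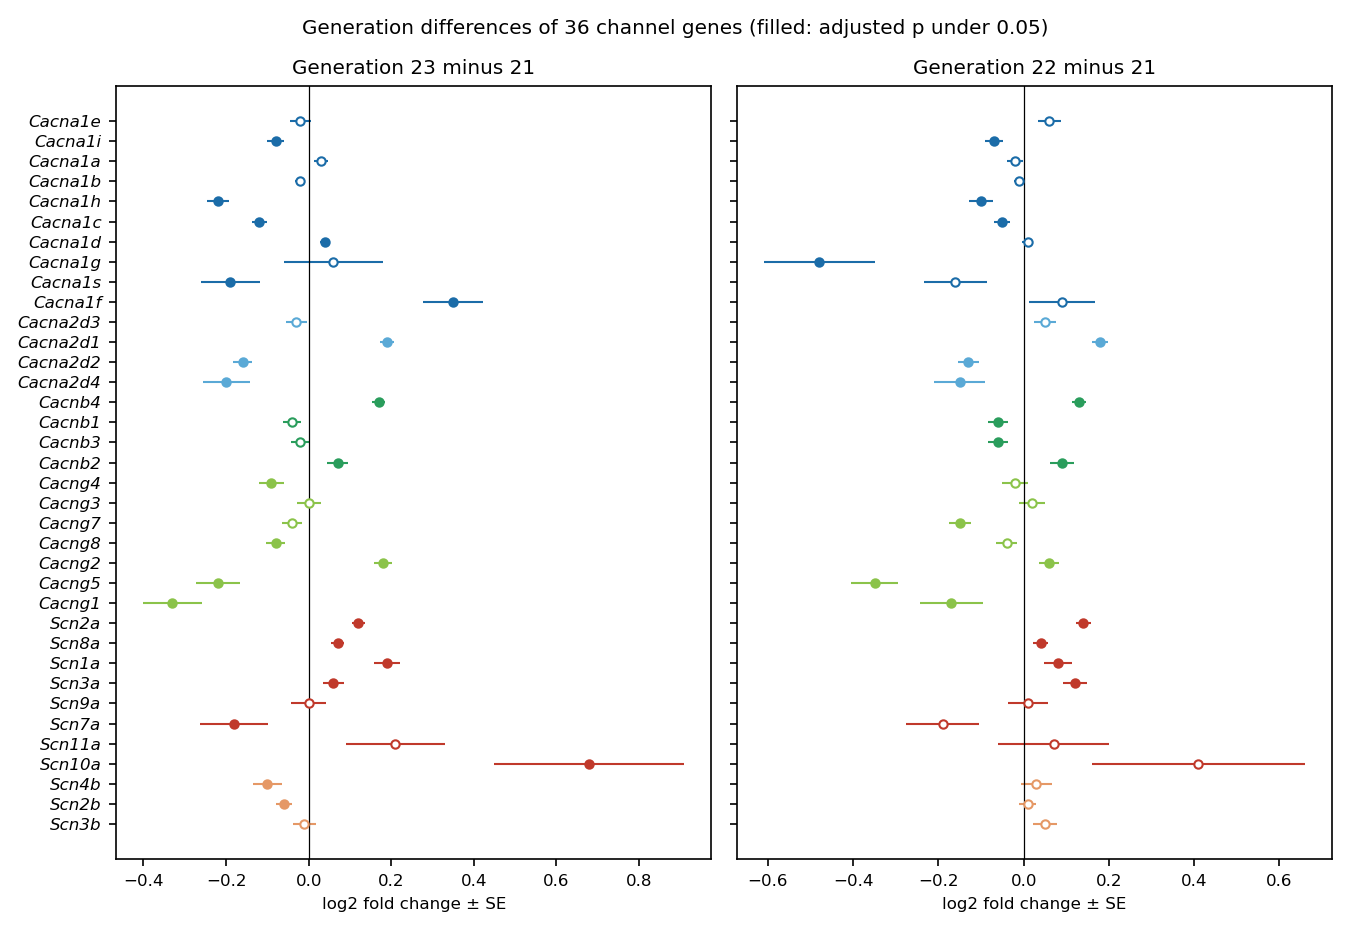
Log2 fold change with its SE for 36 of the 38 members in generation 23 against 21 (left) and 22 against 21 (right), coloured by subunit class, filled where the adjusted p is under 0.05. The contrasts share the generation 21 libraries. Most members lie within 0.2 of 0, and Scn10a has the widest errors.

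Of the calcium pores, 6 of 10 were called in generation 23 against 21, 2 higher and 4 lower, a share near the 58.3% of all genes called. Cacna1h ran from 32.4 to 188.1 CPM with a median of 146.6 in generation 21, from 73.5 to 172.1 (median 134.7) in generation 22 and from 79.3 to 162.9 (median 123.95) in generation 23. The ranges overlapped, with generation 23 lowest at the median. Cacna1h fell by 0.22 on the log2 scale from generation 21 to 23 (edgeR adjusted p = 1.93e-14, SE 0.026) and by 0.10 from 21 to 22. Cacna1c fell by 0.12 from generation 21 to 23 (edgeR adjusted p = 8.75e-10), and Cacna1i fell by 0.08. Cacna1d was higher by 0.04. With 6 marker scores in the fit Cacna1d was at -0.02 (edgeR adjusted p = 0.217) and Cacna1c at -0.03 (edgeR adjusted p = 0.078).

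Cacna1f, the retinal pore, and Cacna1s, the muscle pore, changed at very low levels. Cacna1f had medians of 0.315, 0.344 and 0.430 CPM in generations 21, 22 and 23, with ranges that overlapped, and was higher by 0.35 in generation 23 than in 21 (SE 0.072, edgeR adjusted p = 7.55e-06). Its rho with the cortical score was 0.58, and with 6 marker scores in the fit the difference was -0.05 (adjusted p = 0.563 in edgeR). Cacna1s was lower by 0.19 in generation 23 than in 21, and by 0.11 on the log2 scale with the scores (edgeR adjusted p = 0.264).

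Cacna1g depended on a few libraries. Its levels ran from 6.26 to 395.04 CPM (median 9.98) in generation 21, from 5.55 to 56.6 (median 9.82) in generation 22 and from 5.77 to 54.8 (median 18.2) in generation 23. The generations overlapped, and the median of generation 23 was the highest while generation 21 held the highest single values. In edgeR the log2 difference was 0.06 for 23 against 21 (SE 0.12, adjusted p = 0.701), -0.48 for 22 against 21 (SE 0.13, adjusted p = 0.000742) and 0.54 for 23 against 22 (SE 0.13, adjusted p = 0.000994). Without the 29 libraries set apart these became 0.63 (adjusted p = 7.41e-12), 0.07 (adjusted p = 0.533) and 0.56 (adjusted p = 4.68e-07), with medians of 9.75, 9.75 and 17.8 CPM. Without female generation 21 replicate 34 alone the difference was 0.24 for 23 against 21 (adjusted p = 0.0505) and -0.30 for 22 against 21 (adjusted p = 0.0246). The summed cortical markers had medians of 624.8, 643.5 and 720.5 CPM in generations 21, 22 and 23. Over all libraries Bcl11b alone had a median of 487 CPM against 643.8 for this sum. The sum thus rests largely on 1 gene whose cells of origin were not tested. With 6 marker scores in the fit the Cacna1g difference was 0.03 between generations 23 and 22 (edgeR adjusted p = 0.645) and -0.16 between 23 and 21 (edgeR adjusted p = 8.23e-05).

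Of the α2δ subunits, Cacna2d1 changed most evenly. Its levels ran from 107.8 to 259.2 CPM (median 181.45) in generation 21, from 162.2 to 345.1 (median 198.4) in generation 22 and from 165.8 to 274.6 (median 200.9) in generation 23. Generation 21 was lowest at the median and the ranges overlapped. Cacna2d1 was higher by 0.19 in generation 23 than in 21 (SE 0.018, edgeR adjusted p = 2.08e-21) and by 0.18 in generation 22 (adjusted p = 1.58e-17), and generation took 25.9% of its variance, the highest share of the members. Cacna2d2 fell by 0.16 from generation 21 to 23 and by 0.13 from 21 to 22. Cacna2d4 fell by 0.20 and 0.15. With 6 marker scores in the fit these were -0.09 and -0.06 (edgeR adjusted p = 0.12 and 0.368), and without the libraries set apart its difference between generations 22 and 21 was -0.07 (edgeR adjusted p = 0.334) and without female generation 21 replicate 34 alone -0.11 (adjusted p = 0.0921).

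Of the β subunits, Cacnb4 rose in the same way. Its medians were 333.5, 352.3 and 359.4 CPM in generations 21, 22 and 23, its highest values 386.5, 429.7 and 440.6, and the ranges overlapped. It was higher by 0.17 in generation 23 than in 21 (SE 0.016, edgeR adjusted p = 6.94e-22) and by 0.13 in generation 22 (adjusted p = 4e-12). Cacnb2 was higher by 0.07 and 0.09, the former 0.05 (edgeR adjusted p = 0.051) without the libraries set apart. Cacnb1 and Cacnb3 were each lower by 0.06 on the log2 scale in generation 22 than in 21, at edgeR adjusted p = 0.0252 and 0.033, and 0.0531 and 0.0542 without the libraries against the labelled sex.

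The γ subunits moved in different directions. Cacng2 had medians of 50.2, 52.2 and 57.4 CPM in generations 21, 22 and 23, with overlapping ranges, and was higher by 0.18 in generation 23 than in 21 (SE 0.022, edgeR adjusted p = 3.47e-14) and by 0.12 than in 22 (adjusted p = 4.22e-05). Cacng1 had medians of 0.712, 0.634 and 0.563 CPM and fell by 0.33 from generation 21 to 23 (SE 0.071, edgeR adjusted p = 2.24e-05). Cacng5 had medians of 9.18, 8.14 and 8.49 CPM and fell by 0.35 from generation 21 to 22 (edgeR adjusted p = 1.17e-08) and by 0.22 from 21 to 23, the latter -0.07 (adjusted p = 0.151) without the libraries set apart. Its highest values were 69.1, 15.1 and 15.5 CPM, so a few generation 21 libraries enlarge both falls. Without the libraries set apart its medians were 9.08, 8.21 and 8.51 CPM. Cacng7 fell by 0.15 from generation 21 to 22 and was higher by 0.12 in generation 23 than in 22, the latter 0.04 with 6 marker scores in the fit (edgeR adjusted p = 0.136). Cacng4 and Cacng8 fell by 0.09 and 0.08 from generation 21 to 23. With the same scores the direction of Cacng4 turned, to a difference of 0.06 (edgeR adjusted p = 0.00253).

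Of the sodium pores, the 4 central ones were called higher in generation 23 than in 21: Scn1a by 0.19, Scn2a by 0.12, Scn8a by 0.07 and Scn3a by 0.06. Scn1a had means of 201.5 ± 66.4 (SD), 213.1 ± 29.9, 229.7 ± 31 CPM in generations 21, 22 and 23, with lowest values of 105.6, 161.5 and 170.03 and overlapping ranges (edgeR adjusted p = 1.41e-08 for 23 against 21, SE 0.031). Scn2a had medians of 544.3, 589.1 and 586.7 CPM and was higher by 0.14 in generation 22 than in 21 (edgeR adjusted p = 3.12e-13). The same 4 pores were also called higher in generation 22 against 21, a contrast that shares the generation 21 libraries. For Scn3a the difference between generations 23 and 21 was 0.04 without the libraries set apart (edgeR adjusted p = 0.112) and 0.05 without female generation 21 replicate 34 alone (adjusted p = 0.0515). Without the 29 libraries against the labelled sex, Scn1a and Scn8a kept differences of 0.08 and 0.04 between generations 22 and 21 at edgeR adjusted p = 0.0584 and 0.0904. With 6 marker scores in the fit the difference of Scn8a between generations 23 and 21 had an edgeR adjusted p = 0.98.

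Of the other pores, Scn7a fell by 0.18 from generation 21 to 23 (edgeR adjusted p = 0.0482), and its difference was -0.11 without the libraries set apart (adjusted p = 0.235), -0.18 without female generation 21 replicate 34 alone (adjusted p = 0.0521) and -0.17 without the libraries against the labelled sex (adjusted p = 0.0743). Scn10a was higher by 0.68 in generation 23 than in 21 (SE 0.23, edgeR adjusted p = 0.00792), a value that averages over its 2 levels, and without the libraries set apart the difference was 0.63 (adjusted p = 0.0188). Scn9a and Scn11a were not called in any pair of generations.

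Of the sodium β subunits, Scn4b had medians of 953.5, 1007 and 899.8 CPM in generations 21, 22 and 23, with overlapping ranges. It fell by 0.10 from generation 21 to 23 and by 0.13 from 22 to 23 (edgeR adjusted p = 0.00606 for the latter). Scn2b fell by 0.06 and 0.07 in the same contrasts. The summed spiny projection markers had medians of 4719, 4532 and 4198 CPM. Of these 10 markers 7 were called lower in generation 23 than in 21, where 32.6% of all genes were. Of 10 cortical markers 8 were called higher, where 25.8% of all genes were. Of 8 thalamic markers 7 were called lower, as were 4 of 6 oligodendrocyte markers. The summed thalamic markers did not fall at the median, with 168.9, 175.04 and 178.7 CPM in generations 21, 22 and 23. Their highest values were 4326, 243.7 and 513.1 CPM. A part of tissue content in the differences of Scn4b and Scn2b was not tested. With 6 marker scores in the fit Scn4b was at 0.04 and Scn2b at -0.01 for generation 23 against 21 (edgeR adjusted p = 0.234 and 0.685), and at -0.03 and -0.04 for 23 against 22 (edgeR adjusted p = 0.502 and 0.209).

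Genes for other proteins of the same machinery were called at shares near those of all genes in the contrasts with generation 21. Of 26 genes coding for proteins that bind these channels, 17 (65.4%, against 58.3% of all genes) were called in generation 23 against 21, 10 higher and 7 lower. In 22 against 21 there were 11 (42.3%, against 46.6%), and in 23 against 22 there were 12 (46.2%, against 18.2%). Stac2, an adaptor of L-type channels, was higher by 0.70 in generation 23 than in 21 (edgeR adjusted p = 3.36e-12), and Fgf12, an intracellular modulator of sodium channels, and Rims1, a scaffold at presynaptic calcium channels, by 0.26 each. Rem1 (a mean of only 0.447 CPM), Rem2 and Tpcn1 fell by 0.21, 0.17 and 0.15. Between labelled sexes 3 of the 26 genes were called (11.5%, against 2.86% of all genes). Stac, at a mean of only 0.406 CPM, was called lower in libraries labelled female by 0.30 on the log2 scale, and Nfasc was called higher by 0.05.

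Some members varied together over the libraries. Of 703 pairs of members, 53 (7.54%) had a Spearman rho of at least 0.5, where 0.285% of all pairs of genes tested did, and 4 pairs had a rho of -0.5 or lower. Of these 53 pairs 1 involves Scn10a, whose 2 levels make a pooled value unsuitable. The median rho was 0.03, so most pairs did not move together, and 10 members, among them Cacna1b, Cacna1d, Scn7a and Scn9a, had no partner at 0.5. The pair count was 43 after removal of sex and generation and 40 without the libraries set apart, and 40 to 90 within single groups of sex and generation, with the most in males of generation 23. The share over all pairs of genes was not computed under these settings.

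Sodium pores and a γ subunit made close pairs. Scn1a and Scn8a had rho 0.76 and r 0.79 over 416 libraries, and rho from 0.54 to 0.82 within groups. Cacng2 and Scn1a had rho 0.71 and r 0.76. For each pair named here the permutation p is 1e-05 for both measures, the smallest possible, with adjusted p = 2.62e-05 for rho and 2.43e-05 for r over the 703 pairs, and r without the 2 farthest libraries lay between 0.59 and 0.79 for the positive pairs.

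Other close pairs joined calcium channel subunits with each other and the β subunits Scn2b and Scn4b. Cacna2d3 and Cacng4 had rho 0.68, Cacna1h and Cacng4 0.67, Cacna2d1 and Cacnb4 0.65 and the neighbours Scn2b and Scn4b 0.65 (r 0.63, and rho from 0.46 to 0.76 within groups). Cacng4, Cacna1h, Cacna2d3 and Scn4b had rho 0.77, 0.75, 0.73 and 0.68 with the spiny score (r 0.79, 0.76, 0.85 and 0.72, permutation p = 1e-05, adjusted p = 2.4e-05 for rho). Cacna1c had rho 0.57 but r 0.08 with that score, and r 0.51 without the 2 farthest libraries. The lowest pairs were Cacna1g with Cacna2d3 (rho -0.63), Cacna1g with Cacng4 (-0.61), Cacng7 with Scn3a (-0.56), Cacna1g with Cacna1h (-0.54) and Cacna1g with Scn3a (-0.50).

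Pairs differed in how much remained once the marker scores were removed. On residuals after sex, generation and 6 marker scores, 9 pairs (1.28%) had a rho of at least 0.5. The share over all pairs of genes was not computed on such residuals. Scn1a and Scn8a were at 0.62, Cacng2 and Scn1a at 0.57, and Scn2b and Scn4b at 0.52. Cacna1h and Cacng4 were at 0.27, Cacna2d3 and Cacng4 at 0.26, and Cacna1g and Cacna2d3 at -0.16.

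**Figure D5:**
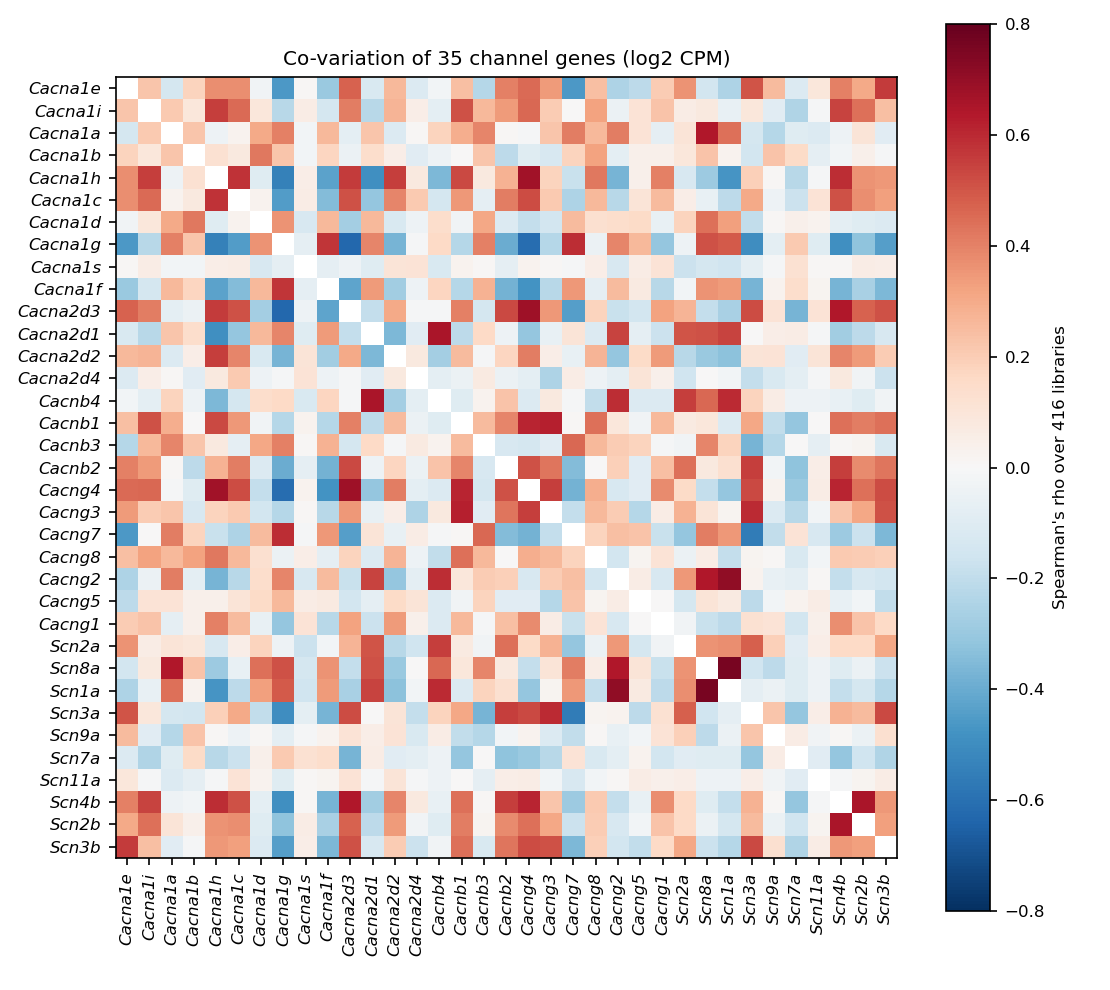
Spearman's rho of log2 CPM over 416 libraries for each pair of 35 members (Scn10a is not drawn), from blue (negative) to red (positive), with genes ordered by subunit class and level. Red cells join Scn1a, Scn8a and Cacng2, and Cacna1h, Cacna2d3, Cacng4 and Scn4b, and the row of Cacna1g holds the lowest value, -0.63 with Cacna2d3.

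The median rho of 22 pairs of subunits known to assemble was 0.06, against 0.03 for all member pairs, and 3 of the 22 had a rho of at least 0.5, against 53 of 703. Among sodium channel partners, Scn3b had rho 0.53 with Scn3a and 0.31 with Scn2a, Scn2b had 0.16 with Scn2a and -0.14 with Scn1a, and Scn4b had -0.10 with Scn8a. Among calcium channel partners, Cacna1c and Cacnb2 had rho 0.41, Cacna1d and Cacnb3 0.31, Cacna1a and Cacnb4 0.18, and Cacna1a and Cacna2d2 -0.11.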

How the data were processed

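Gene-level estimated counts of 416 striatum libraries, as deposited by the authors in 1 table, were the only measurement. The aligner, counter, genome build and annotation behind them are not given in the sources used here. The kit keeps strand, per the labels' protocols, but whether counting used it is not stated. The deposited counts were rounded to whole numbers, as 23.8% of values were not whole. Gene IDs were named from GENCODE M21 (46005 of 46517, 98.9%), and 0 columns belonged to no listed sample.

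The members and lists were chosen with earlier results of these data known. Genes passed edgeR's filterByExpr at a minimum count of 10, and libraries were scaled with TMM factors. CPM are on these effective library sizes, and log2 CPM used a prior count of 2. Labelled sex and generation were fitted together in edgeR 4.0.16's quasi-likelihood test over all genes (R 4.3.3), with Benjamini-Hochberg adjustment and a threshold of 0.05. The interaction was fitted over the 6 groups. Replicates were numbered within a group in the order of the samples' records, and these numbers only name libraries. Alternatives used limma 3.58.1 (voom), DESeq2 1.42.0, RLE factors, other filters, 6 marker scores as covariates, and fits without some libraries. The fits without female generation 21 replicate 34 and within 1 sex or generation were added after seeing the data.

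Members in full were, by rule, up to 6 called per direction and contrast by size, the 5 largest and 5 smallest SDs, the 10 highest and 5 lowest pairs, assembling pairs, and 5 most like genes for the 4 most variable members whose mean log2 CPM reached 1. Values of 2 members and of 1 gene on the list of binding proteins are not reported here, but the counts, shares and medians over members include them. All other named members, libraries and likeness lists were chosen after their values were seen. On simulated data (6000 genes), changes of 1.1, 1.2, 1.5 and 2-fold were recovered in 70%, 94%, 100% and 100% for sex and in 58%, 86%, 100% and 100% for generation 23 against 21. At a median total of 43516282 counts, low members such as Scn10a, Cacna1f and Cacng6 rest on few reads. Intervals and p-values measure the spread between animals and counting error only.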

Additional observations from a re-analysis of the deposited data

How the results depend on the processing

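No paired analysis was possible because the labels give each animal a number of its own and no number shared between groups. The count of members called was within 1.5 times its value in most fits. Exceptions were 5 and 4 called between sexes without the libraries set apart and with 6 marker scores, 17 for generation 23 against 21 and 20 for any generation within libraries labelled female, and 3, 2 and 3 for generation 23 against 22 with the scores, within female and within male libraries. Pairs at a rho of at least 0.5 numbered 9 after the scores and 90 within males of generation 23. With the 6 scores, the difference between generations 23 and 21 turned to -0.018 for Cacna1d, 0.0612 for Cacng4, -0.16 for Cacna1g, -0.0478 for Cacna1f and 0.0365 for Scn4b, and that between 23 and 22 to -0.00315 for Cacna1f. Cacna1g turned to -0.17 for 23 against 21 within females and to 0.0739 for 22 against 21 without the libraries set apart. The cause was not tested. Of 59 single-gene results, none changed sign under DESeq2, RLE factors or limma voom, and 58, 59 and 48 kept their side of the threshold. Genes below 1 CPM are limited by depth.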
